A study of Homo sapiens with 12 samples.

Results

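BRCA2 and PALB2 were examined through every construct of the library that carried an sgRNA against either gene, taken from both read count tables by the gene name that opens the sgRNA's name, in either of the 2 construct positions. This gave 9112 constructs of 1301881 in all: 4560 held a BRCA2 sgRNA, 4560 held a PALB2 sgRNA, and 8 of these held one of each. Each gene had 2 sgRNAs, and the whole library joined all 1141 sgRNAs to one another in both orders, 55 of them non-targeting and the rest against 543 genes. The cells were K562, a human leukemia cell line, carrying the CRISPRi machinery, in which a catalytically dead Cas9 fused to a repressor lowers transcription at the start site that an sgRNA matches. A screen in 2022 and a repeat in 2023 each had 2 replicate cultures, and each culture gave 3 libraries: niraparib, reference and T0. In the niraparib libraries cells had been exposed to this PARP inhibitor, at 2 µM for 3 days with harvest 18 days after transduction in 2022, and at 2 µM raised to 3 µM over 4 days with harvest at 19 days in 2023. The reference libraries came from the same cultures kept in DMSO vehicle and harvested on the same days, and the T0 libraries from cells taken 9 days after transduction, before either treatment. All groups carried the same library and the same CRISPRi machinery. Dose, days in drug, harvest day and year changed together between the screens and cannot be told apart. Knockdown at the RNA or protein level was not analysed here.

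BRCA2 acts in homologous recombination at resected double-strand breaks and protects stalled replication forks. PALB2 (partner and localizer of BRCA2) bridges BRCA1 and BRCA2 and brings BRCA2 to the break, so that loss of either protein impairs homologous recombination. Cells without this pathway are known to be sensitive to PARP inhibitors, which trap PARP1 on DNA and leave lesions that need recombination for repair, and such cells also lean on other repair routes such as end joining by POLQ.

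Because CRISPRi acts around a start site, the sequence at each start is shown, from RefSeq for GRCh38.p14, 250 bases before to 50 bases after the start and 5′ to 3′ on the gene's own strand. Both genes have a divergent neighbour that is also targeted in the library: ZAR1L starts 145 bases from BRCA2, and DCTN5 starts 156 bases from PALB2 on the opposite strand. The capitals mark the stretch between the neighbour's start and the member's start. The BRCA2 window is chr13:32315258-32315557 on the + strand, and the PALB2 window is chr16:23641261-23641560 on the - strand.
BRCA2: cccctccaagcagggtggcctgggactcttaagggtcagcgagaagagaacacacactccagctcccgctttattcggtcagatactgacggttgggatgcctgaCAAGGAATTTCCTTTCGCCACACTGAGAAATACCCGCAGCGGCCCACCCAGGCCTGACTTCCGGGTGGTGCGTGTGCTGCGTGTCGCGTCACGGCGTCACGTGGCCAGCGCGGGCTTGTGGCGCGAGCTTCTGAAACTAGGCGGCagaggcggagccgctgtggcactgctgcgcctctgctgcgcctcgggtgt
PALB2: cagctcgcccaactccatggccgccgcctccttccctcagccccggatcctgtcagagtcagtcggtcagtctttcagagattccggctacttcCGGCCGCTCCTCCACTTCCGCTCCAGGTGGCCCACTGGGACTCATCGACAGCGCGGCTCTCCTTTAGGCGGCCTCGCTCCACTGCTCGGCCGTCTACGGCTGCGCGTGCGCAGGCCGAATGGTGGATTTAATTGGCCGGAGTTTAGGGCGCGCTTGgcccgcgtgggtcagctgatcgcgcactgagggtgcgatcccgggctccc
By the positions in the sgRNA names, whose genome build is not given in the sources used here, the sgRNAs BRCA2_+_32889673 and BRCA2_-_32889750 lay 77 bases apart, and PALB2_+_23652250 and PALB2_-_23652582 lay 332 bases apart. They are called the + and the - sgRNA of each gene below. The BRCA2 sgRNAs lay 123 to 210 bases from the ZAR1L sgRNAs, and the PALB2 sgRNAs 187 to 752 bases from the DCTN5 sgRNAs.

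The 12 libraries held 182.6 to 460.7 megareads, and a construct had a median count of 227 in the 2022 T0 libraries and 155 in the 2023 T0 libraries. The reference library of 2022 replicate 1 stood apart. Its difference from replicate 2 over 543 genes had a Pearson r of 0.667 with the niraparib response measured in 2023, and an SD over genes of 0.15. The same difference between the 2023 reference replicates had an r of 0.0603 with the response of 2022 replicate 2, and an SD of 0.030. Between the 2022 niraparib replicates, replicate 1 minus replicate 2 had an r of 0.595 with the 2023 response, and an SD of 0.039. The points share sgRNAs, and no library is on both sides. BRCA2 had the lowest value of all 543 genes in the 2022 reference difference (-1.03), and PALB2 stood 25th from the lowest (-0.37). Single phenotypes are therefore also given without this library. For the partners named below, at least 44 calls were lost without this culture, and at least 52 to 62 without 1 of the others. The cause was not tested.

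Knockdown of BRCA2 depleted cells strongly and knockdown of PALB2 less so, and niraparib deepened both losses. Levels were taken as reads per construct over the 220 constructs that pair a member with a non-targeting sgRNA, as a percentage of constructs with 2 non-targeting sgRNAs in the same library. Values follow the order 2022 replicate 1, 2022 replicate 2, 2023 replicate 1, 2023 replicate 2. BRCA2 stood at 10.1%, 10.4%, 8.52% and 8.83% in the niraparib libraries, against 25.6%, 52.25%, 51.6% and 53.2% in the reference libraries and 108.4% to 110.9% at T0. No niraparib value reached any reference value, and the lone low reference value is that of 2022 replicate 1. PALB2 stood at 40.7%, 42.1%, 40.2% and 40.2% in the niraparib libraries, against 67.7%, 87.7%, 88.5% and 88.2% in the reference libraries and 112.6% to 113.9% at T0. The PALB2 arms did not overlap either, and every niraparib value of BRCA2 lay below every niraparib value of PALB2.

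In edgeR's quasi-likelihood fit over all 12 libraries, with the culture as a block, BRCA2 changed by a log2 of -1.31 in growth (reference over T0, SE 0.17, adjusted p = 0.000358) and of -2.23 in response (niraparib over reference, SE 0.18, adjusted p = 3.44e-05). PALB2 changed by -0.46 in growth (SE 0.06, edgeR adjusted p = 0.000318) and by -1.02 in response (SE 0.06, adjusted p = 7.88e-06). Over the whole course, niraparib over T0, edgeR gave -3.54 for BRCA2 (adjusted p = 1.95e-06) and -1.47 for PALB2 (adjusted p = 4.37e-07). Among all 543 genes, 81.0% were called lower in growth, 35.7% lower in response and 82.1% lower over the whole course, so a call in growth alone sets neither gene apart. BRCA2 ranked 2nd from the lowest of 543 in response and 96th in growth, and PALB2 ranked 22nd in response and 275th in growth, where the median gene was at -0.46. Without the reference library of 2022 replicate 1, growth was -1.07 for BRCA2 and -0.37 for PALB2, and response was -2.47 and -1.10. The PALB2 growth call depended on the baseline: with TMM scaling in edgeR it was -0.0024 (adjusted p = 0.968) and with DESeq2's own size factors -0.07 (adjusted p = 0.0877), scalings that put the median gene at -0.0063 and -0.07, against -0.46 with the non-targeting baseline. Both scalings also called all 55 non-targeting sgRNAs changed in growth.

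BRCA2 lay below PALB2 in 4 of 4 cultures for each measure, by a log2 of -0.87 ± 0.33 in growth, -1.20 ± 0.41 in response and -2.06 ± 0.12 over the whole course (SD, n = 4). An exact sign-flip permutation test over 4 cultures gave p = 0.13 for each, the smallest that 4 cultures allow. Between the screens, response was -2.59 in 2023 and -1.87 in 2022 for BRCA2 and -1.14 in 2023 and -0.90 in 2022 for PALB2. Neither difference passed edgeR's test (adjusted p = 0.321 and 0.337), and the 2022 values hold the library that stood apart.

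The 2 sgRNAs of each gene differed from each other too. The BRCA2 + sgRNA was the strongest of the 4, at 2.05%, 2.065%, 1.71% and 2.00% of the non-targeting level in the niraparib libraries, against 12.8%, 38.4%, 39.0% and 41.5% in the reference libraries. Those niraparib values rest on 693 to 1238 reads over 110 constructs. The BRCA2 - sgRNA stood at 18.2%, 18.7%, 15.3% and 15.7% in the niraparib libraries, against 38.4%, 66.1%, 64.1% and 64.9% in the reference libraries. It left more cells than the + sgRNA in each arm of each culture after T0.
The PALB2 - sgRNA stood at 12.3%, 12.5%, 10.7% and 10.0% in the niraparib libraries, against 24.0%, 42.3%, 41.35% and 41.2% in the reference libraries and 77.2% to 79.8% at T0. The PALB2 + sgRNA stood at 69.03%, 71.65%, 69.7% and 70.4% in the niraparib libraries, against 111.3%, 133.1%, 135.6% and 135.2% in the reference libraries and 146.5% to 149.2% at T0. Since the PALB2 + sgRNA began above the non-targeting level and the - sgRNA below it, the changes from T0 are the ones to compare. Every one of these sgRNAs passed edgeR's test in growth, response and over the whole course, where 76.9%, 32.7% and 78.5% of 1086 sgRNAs were called lower. Over the whole course, edgeR gave a log2 of -5.86 and -2.66 for the + and - sgRNAs of BRCA2, and of -2.79 and -1.08 for the - and + sgRNAs of PALB2.

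**Figure D1:**
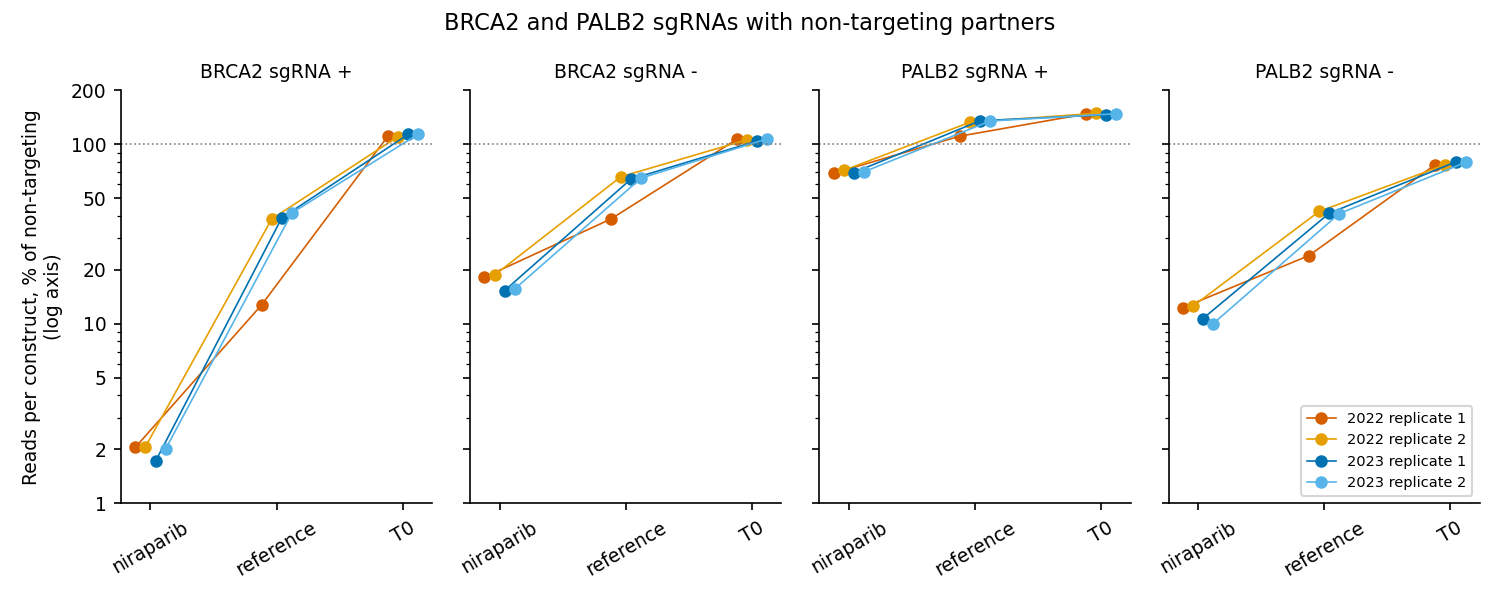
Reads per construct with non-targeting partners as a percentage of constructs with 2 non-targeting sgRNAs (log axis) for each BRCA2 and PALB2 sgRNA, by arm, with one line for each culture. The BRCA2 + sgRNA lies at 1.71% to 2.065% in the niraparib libraries, the PALB2 + sgRNA at 69.03% to 71.65%, and the 2 - sgRNAs lie at 10.0% to 18.7%.

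The - sgRNAs of the genes formed a near-matched pair. The PALB2 - sgRNA minus the BRCA2 - sgRNA was -0.21 ± 0.03 in growth, 0.08 ± 0.05 in response and -0.14 ± 0.05 over the whole course (log2, SD, n = 4, exact permutation p = 0.13 for each). These differences had 1 sign in 4 of 4 cultures but were smaller than the gaps within a gene: the + minus the - sgRNA of BRCA2 was -3.19 ± 0.10 over the whole course, and the - minus the + sgRNA of PALB2 was -1.71 ± 0.18. The pair of - sgRNAs is used again below where the partners of BRCA2 and PALB2 are compared.

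Pooled over sgRNAs, cells with both genes targeted stood near the level of cells with BRCA2 targeted alone. The 8 pair constructs stood at 9.305%, 7.09%, 9.575% and 9.51% of the non-targeting level in the niraparib libraries, against 22.2%, 47.2%, 53.8% and 52.3% in the reference libraries. In both arms these values lie close to those of BRCA2 alone and below those of PALB2 alone. The niraparib values rest mostly on the 2 constructs that join the BRCA2 - to the PALB2 + sgRNA, which held 70 to 172 reads each, against 0 to 54 in the other 6. The pair minus BRCA2 was -0.19 ± 0.07 in growth (4 of 4 cultures lower, exact permutation p = 0.13), -0.02 ± 0.26 in response (p = 1, exact) and -0.21 ± 0.31 over the whole course (p = 0.25, exact). The pair minus PALB2 was -1.06 ± 0.37 in growth and -1.22 ± 0.49 in response, lower in 4 of 4 cultures.
Against the plain sum of the single phenotypes, the pair was higher by 0.27 ± 0.17 in growth, 0.996 ± 0.31 in response and 1.26 ± 0.35 over the whole course, in 4 of 4 cultures each (log2, SD, n = 4, exact permutation p = 0.13). Partners of either gene commonly lay above the sum. Averaged per construct, niraparib over T0, the pair exceeded the sum by 1.62. The median partner of BRCA2 exceeded it by 0.75, with PALB2 above 82.5% of 542 partners, and the median partner of PALB2 by 0.61, with BRCA2 above 94.3%.

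**Figure D2:**
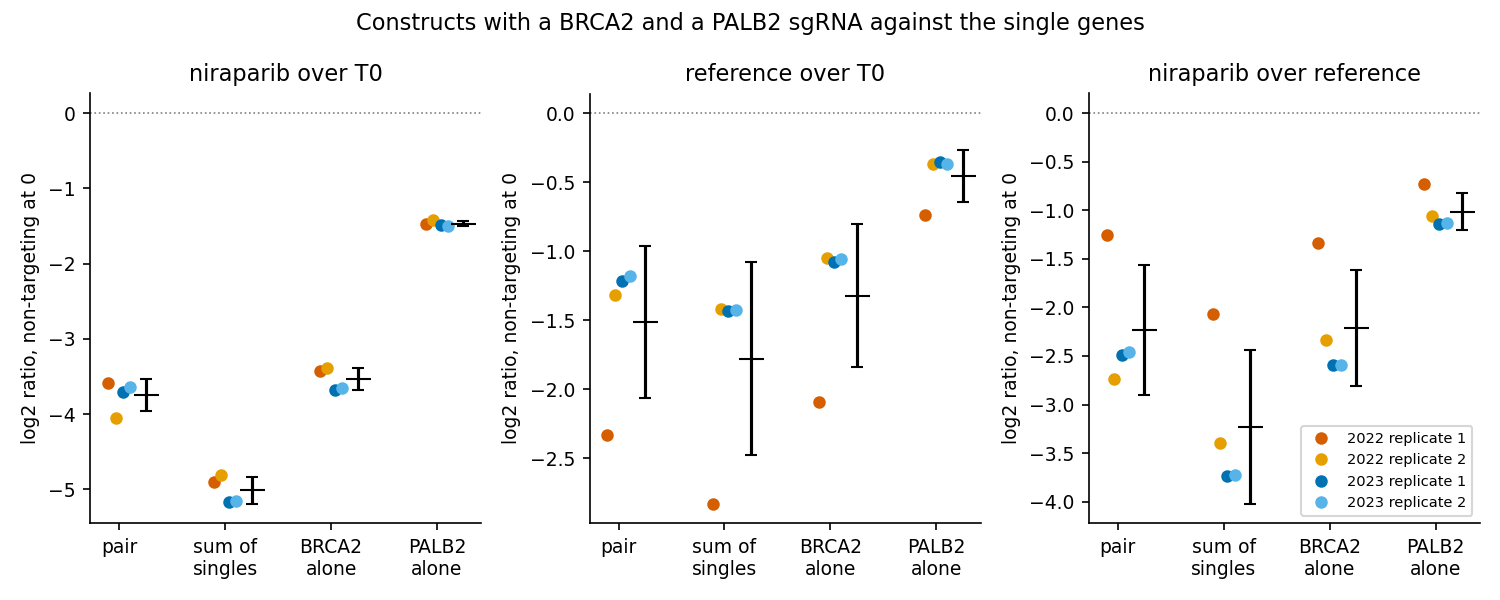
Log2 ratios against non-targeting constructs (points, 4 cultures; bars, mean and SD) for constructs with a BRCA2 and a PALB2 sgRNA, for the sum of the single values, and for each gene alone. The pair lies near BRCA2 alone and above the sum in all 3 contrasts.

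Split by sgRNA, the pair depended on the BRCA2 sgRNA present. With the BRCA2 + sgRNA, the 4 constructs held 0 to 28 reads each in the niraparib libraries, too few to read a further loss there. In growth, joining the PALB2 + or - sgRNA to the BRCA2 + sgRNA changed the value by -0.04 ± 0.06 or -0.03 ± 0.28. Joined to the BRCA2 - sgRNA, they changed growth by -0.11 ± 0.20 or -0.70 ± 0.36, the last lower in 4 of 4 cultures. Joining the PALB2 - sgRNA to the BRCA2 - sgRNA changed the whole-course value by -0.77, -2.09, -0.80 and -0.89 (mean -1.13 ± 0.64, SD, n = 4, exact permutation p = 0.13) relative to the BRCA2 - sgRNA alone. Joining the weaker PALB2 + sgRNA to the BRCA2 - sgRNA moved it by 0.08 ± 0.26, with values on both sides of 0. The largest of these losses, in 2022 replicate 2, rests on 17 and 15 reads in the 2 orders.

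An interaction score was then computed for each gene pair and culture: the log2 change of a construct from T0, less the value on a curve of degree 2 through all partners of the same sgRNA, averaged over sgRNAs and orders. A score below 0 means fewer cells than partners of like single phenotype leave in that background. For BRCA2 with PALB2 the score was 0.10 in the reference arm (limma over 4 cultures, adjusted p = 0.299 over 147040 pairs), -0.10 in the niraparib arm (adjusted p = 0.858) and -0.20 for niraparib minus reference, the differential score (adjusted p = 0.825). Against the plain sum in place of the curve the scores were 0.44, 1.62 and 1.18 and passed (limma adjusted p = 0.00943, 0.00277 and 0.0354). The call for this pair therefore rests on what is taken as the null.

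In vehicle, both genes scored below 0 with 12 shared partners, among them checkpoint, end-joining and ligation genes. Of 542 partners, BRCA2 scored below 0 past an adjusted p of 0.05 with 61 (11.3%) and above with 0 (0.0%), and PALB2 with 18 below (3.32%) and 3 above (0.554%). Over all 147040 gene pairs, limma called 1.29% below and 1.08% above. The 12 partners with which both genes passed below 0 are 19.67% of the BRCA2 calls and 57.14% of the PALB2 calls, and no partner passed with opposite signs. They were HUS1, RAD17, RAD9A, RAD1, POLQ, KIAA1524, LIG1, PARP1, RFC4, SWI5, EWSR1 and RHOXF2. EWSR1, an RNA-binding protein gene, scored -0.37 with BRCA2 and -0.27 with PALB2, and RHOXF2, a homeobox gene, scored -0.26 and -0.23. These comparisons share the partners' single phenotypes and the cultures.
The counts depend on all 4 cultures. Reference calls in total were 16, 6, 12 and 11 for BRCA2, against 61, and 5, 1, 3 and 2 for PALB2, against 21, without 2022 replicate 1, 2022 replicate 2, 2023 replicate 1 and 2023 replicate 2 in turn. Either screen alone gave 0 for both genes, with 123 to 175 partners of BRCA2 and 65 to 96 of PALB2 at an unadjusted limma p under 0.05. Among named reference calls, those lost without 2022 replicate 1 included KIAA1524, TOPBP1, HJURP and SWI5 with BRCA2 and DCTN5, POLQ, PARP1, RAD9A, RAD1, RFC4, BARD1, SWI5 and RAD51B with PALB2 (limma adjusted p = 0.0556 to 0.138), with the sign of each score kept. PALB2 then kept 4 calls below 0, those of HUS1, KIAA1524, RAD17 and LIG1, so its calls for EWSR1, RHOXF2 and RIF1 were lost as well.

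HUS1, part of the ring-shaped checkpoint clamp with RAD9A and RAD1 that activates ATR, gave the lowest score with both genes. Its scores with BRCA2 were -0.88, -1.36, -1.45 and -1.86 (mean -1.39 ± 0.40, SD, n = 4, limma adjusted p = 0.0132), and with PALB2 -0.51, -0.88, -0.95 and -0.79 (mean -0.78 ± 0.19, adjusted p = 0.0112). All 8 values lie below 0, and each culture's BRCA2 value lies below its PALB2 value. The clamp's loader RAD17 scored -0.92 with BRCA2 and -0.55 with PALB2, RAD9A scored -0.81 and -0.48, and RAD1 scored -0.72 and -0.37. All of these passed. In the list of 9 ATR-CHK1 checkpoint genes, 6 passed below 0 with BRCA2 and 4 with PALB2, and the list medians were -0.60 and -0.31, against -0.08 and 0.00 over all partners.

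POLQ and KIAA1524 were the shared partners that act in end joining or on broken chromosomes. POLQ, the polymerase of microhomology-mediated end joining, had almost no phenotype of its own in vehicle. Constructs with POLQ and BRCA2 sgRNAs averaged -2.58 ± 0.37 (log2, reference over T0, SD, n = 4) and those with POLQ and PALB2 sgRNAs -1.25 ± 0.23, against -0.06 ± 0.05 for POLQ alone. Its scores with BRCA2 were -0.71, -1.24, -1.22 and -1.25 (adjusted p = 0.00884, limma), and with PALB2 -0.42, -0.57, -0.44 and -0.75 (adjusted p = 0.0191). KIAA1524, which encodes CIP2A and tethers broken chromosomes through mitosis with TOPBP1, scored -1.01 with BRCA2 and -0.59 with PALB2 and averaged -0.23 ± 0.04 alone. In the list of 8 end-joining genes these were the calls below 0 with either gene, so the classical Ku and ligase IV factors had none.

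LIG1 and PARP1 were also shared. LIG1, the ligase that seals Okazaki fragments, scored -0.75, -1.17, -1.69 and -1.14 with BRCA2 (mean -1.18, limma adjusted p = 0.018) and -0.21, -0.55, -0.47 and -0.66 with PALB2 (mean -0.47, adjusted p = 0.0363). PARP1, the main target of niraparib, scored -1.13 ± 0.04 with BRCA2 and -0.48 ± 0.20 with PALB2 in vehicle (limma adjusted p = 0.00258 and 0.0368). In the list of 11 PARP and single-strand break genes, 4 passed below 0 with BRCA2 (LIG1, PARP1, XRCC1 and CHD1L) and 2 with PALB2 (LIG1 and PARP1). Over all partners, 11.3% passed below 0 with BRCA2 and 3.32% with PALB2.
The clamp loader subunit RFC4 passed with both genes, at -0.67 and -0.43. Of 8 post-replication repair and clamp loader genes, 6 passed with BRCA2 and 1 with PALB2, and of 3 RNase H2 subunits, which remove ribonucleotides from DNA, 2 passed with BRCA2 and 0 with PALB2. These counts stand beside the same shares over all partners, 11.3% and 3.32%. Against the plain sum in place of the curve, the scores of RAD9A turned slightly positive, at 0.03 with BRCA2 and 0.07 with PALB2, while those of HUS1, POLQ, LIG1, PARP1 and KIAA1524 stayed below 0 with both genes. With PALB2, the calls for HUS1, LIG1 and PARP1 were then lost (limma adjusted p = 0.0696, 0.0509 and 0.267).

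**Figure D3:**
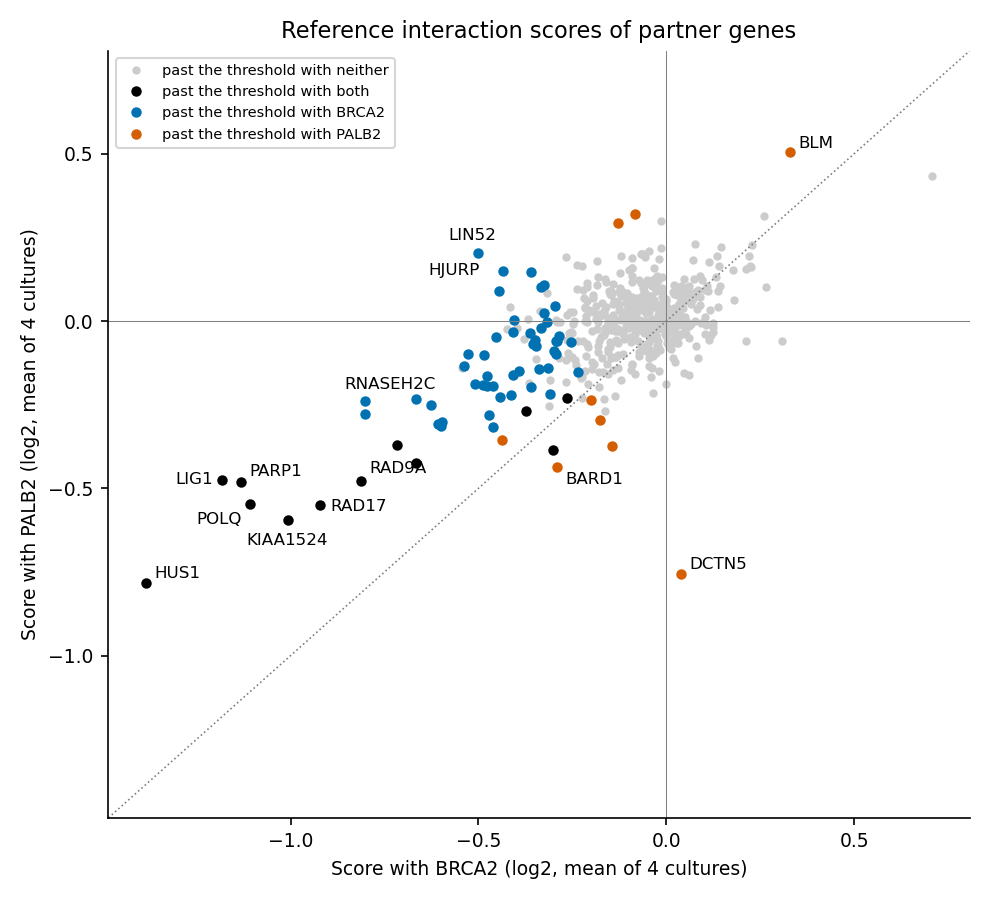
Reference-arm interaction score of each of 541 partner genes with PALB2 (vertical) against BRCA2 (horizontal), log2, mean of 4 cultures, coloured by which member passed the threshold; the dotted line marks equal scores. HUS1, LIG1, PARP1, POLQ, KIAA1524 and RAD17 lie below 0 with both genes and nearer 0 with PALB2, and DCTN5 lies below 0 with PALB2 and at 0.04 with BRCA2.

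Among genes of homologous recombination in vehicle, BRCA2 had 4 of 7 end-resection genes called below 0 (11.3% of all its partners were) and PALB2 had 3 of 16 strand exchange genes (3.32%). Of 8 genes of the BRCA1 complexes, 1 passed below 0 with each gene: RBBP8, which starts end resection, with BRCA2 (-0.25), and BARD1, the partner of BRCA1, with PALB2 (-0.44). Of the strand exchange genes, 1 passed below 0 with BRCA2. The 4 end-resection genes were MRE11A, RAD50, NBN and DNA2, at -0.33 to -0.48. BLM, a helicase that unwinds recombination intermediates, passed above 0 with PALB2 (0.41, 0.53, 0.55 and 0.53, limma adjusted p = 0.00865). BLM scored 0.04, 0.35, 0.44 and 0.48 with BRCA2 (adjusted p = 0.0867), positive in 4 of 4 cultures. Of 15 Fanconi anemia genes 0 passed with either member. At shares of 11.3% and 3.32% over all partners, few calls would fall in a list of this size. At an unadjusted limma p under 0.05, 215 of all partners were called with BRCA2 and 122 with PALB2. Of 10 genes of 53BP1 and shieldin, 0 passed with BRCA2 and RIF1 alone with PALB2.

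Under niraparib, several strand exchange genes scored below 0 with both members. In the niraparib arm BRCA2 had 17 calls below (3.14%) and 44 above (8.12%), and PALB2 31 below (5.72%) and 69 above (12.7%), where 2.64% of all pairs were called below and 2.51% above. With a straight line in place of the curve, BRCA2 had 90 below and 9 above, and PALB2 37 below and 80 above. Of the 16 strand exchange genes, 9 passed below 0 with PALB2 and 4 with BRCA2, and their medians were -0.40 and -0.18, against 0.04 for all partners of either gene. RAD51B, which acts in homologous recombination, had the lowest score of the list with PALB2 (-0.93 ± 0.27, limma adjusted p = 0.00804) and a spread with BRCA2 that missed the threshold (-0.73 ± 0.61, adjusted p = 0.101). SWI5, a strand exchange cofactor, scored -0.83 with PALB2 and -0.42 with BRCA2, and both passed. RAD54L and RAD51C of the same list also passed below 0 with both members, but all of their scores were above 0 against the plain sum.
With the plain sum in place of the curve, SWI5 scored 0.40 with BRCA2 and -0.18 with PALB2, and RAD51B scored -0.02 with PALB2, and none of these passed (limma adjusted p = 0.055, 0.373 and 0.89). The Fanconi E2 enzyme UBE2T passed with PALB2 (-0.58) and BRCA2 (-0.46), and scored 0.22 and 0.69 against the plain sum. C19orf40, which encodes FAAP24, passed at -0.39 with PALB2 and -0.75 with BRCA2, and C4orf27, which encodes the PARP1 cofactor HPF1, at -0.58 and -0.46. All of these scores of C19orf40 and C4orf27 were above 0 against the plain sum (0.34 to 0.96). Calls lost without 2022 replicate 1 included SWI5, RAD54L and C19orf40 with both genes, UBE2T and RAD51C with BRCA2 and C4orf27 with PALB2 (limma adjusted p = 0.0636 to 0.146). Niraparib calls in total were 30, 17, 27 and 32 for BRCA2, against 61, and 23, 20, 30 and 29 for PALB2, against 100, without 2022 replicate 1, 2022 replicate 2, 2023 replicate 1 and 2023 replicate 2 in turn.

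PARP1 scored above 0 under niraparib, where it had been below 0 in vehicle. Its score was the highest call of PALB2, while CLSPN, RPA2 and EIF4A3 ranked above it with BRCA2. With BRCA2 it scored 0.34, 0.79, 0.72 and 1.12 in the niraparib arm (limma adjusted p = 0.0207), and with PALB2 0.95, 0.96, 1.06 and 1.05 (adjusted p = 0.00086). Niraparib over T0, constructs with PARP1 and PALB2 sgRNAs averaged -0.31 ± 0.05 and those with PARP1 and BRCA2 sgRNAs -2.88 ± 0.32, against 1.38 ± 0.16 for PARP1 alone (log2, SD, n = 4). PALB2 alone averaged -1.99 and BRCA2 alone -4.42 per construct. Both PARP1 pairs thus lay above the plain sum, but by less than the median partner of PALB2 (0.61) or of BRCA2 (0.75). The PARP1 values were thus above 0 against the curve and against the plain sum. Their place among the partners depended on which of these was taken as the null. In the reference arm the same constructs averaged -1.65 ± 0.29 and -2.96 ± 0.65, against -0.76 ± 0.40 for PARP1 alone.

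The differential score set the arms against each other. BRCA2 had 29 partners above 0 (5.35%) and 1 below (0.185%), PALB2 had 4 above (0.738%) and 3 below (0.554%), and over all pairs 0.215% were called above and 0.252% below. The median differential score over all partners was itself above 0, at 0.15 for BRCA2 and 0.05 for PALB2. The BRCA2 direction depended on the curve: a straight line in its place gave 4 above and 7 below. The BRCA2 + sgRNA alone had 24 above and 0 below, and the - sgRNA 8 and 1. With non-targeting partners the + sgRNA held 693 to 1238 niraparib reads over 110 constructs, and the part of such low counts was not tested. PARP1 led for both genes, with differential scores of 1.47, 1.87, 1.90 and 2.26 for BRCA2 (adjusted p = 0.00709, limma) and 1.20, 1.60, 1.71 and 1.44 for PALB2 (adjusted p = 0.00619). BRCA2 minus PALB2 for PARP1 was 0.39 ± 0.29 and did not pass (adjusted p = 0.188). RBM8A, an exon junction core protein, was the other partner that passed with both, at 0.42 for BRCA2 and 0.56 for PALB2, and neither passed without the replicate block (adjusted p = 0.16 and 0.302, limma).
After PARP1, the highest differential calls of BRCA2 were KIAA1524 at 1.28, HUS1 at 1.15, TOPBP1 at 1.13 and LIG1 at 1.10. POLQ stood at 1.01 and did not pass (limma adjusted p = 0.0972). The differential score contains the reference score with its sign turned, so a low reference score by itself raises it. With PALB2 those 4 partners scored 0.60, 0.25, 0.33 and 0.39, and none passed (limma adjusted p = 0.0607, 0.237, 0.221 and 0.214). The calls below 0 were RMI1, a subunit of the BLM dissolution complex, for BRCA2 (-0.54), and UBE2T (-0.59), C17orf53 (which encodes the recombination factor HROB, -0.51) and the single-strand break ligase LIG3 (-0.38) for PALB2. Without the replicate block, LIG1 with BRCA2 and C17orf53 with PALB2 did not pass (limma adjusted p = 0.0928 and 0.119). UBE2T and LIG3 with PALB2 turned to 0.07 and 0.37 against the plain sum. None of RMI1 with BRCA2 and UBE2T, C17orf53 and LIG3 with PALB2 passed without 2022 replicate 1 (limma adjusted p = 0.114 to 0.157). HUS1 and LIG1 with BRCA2 (limma adjusted p = 0.0876 and 0.0643) and RBM8A with BRCA2 and PALB2 (0.138 and 0.0837) were lost there as well. Without 2022 replicate 1, 2022 replicate 2, 2023 replicate 1 and 2023 replicate 2 in turn, differential calls in total were 4, 1, 1 and 2 for BRCA2, against 30, and 1, 0, 1 and 0 for PALB2, against 7. On simulated data this test made more false differential calls than its nominal share, so all differential calls carry that limit.

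**Figure D4:**
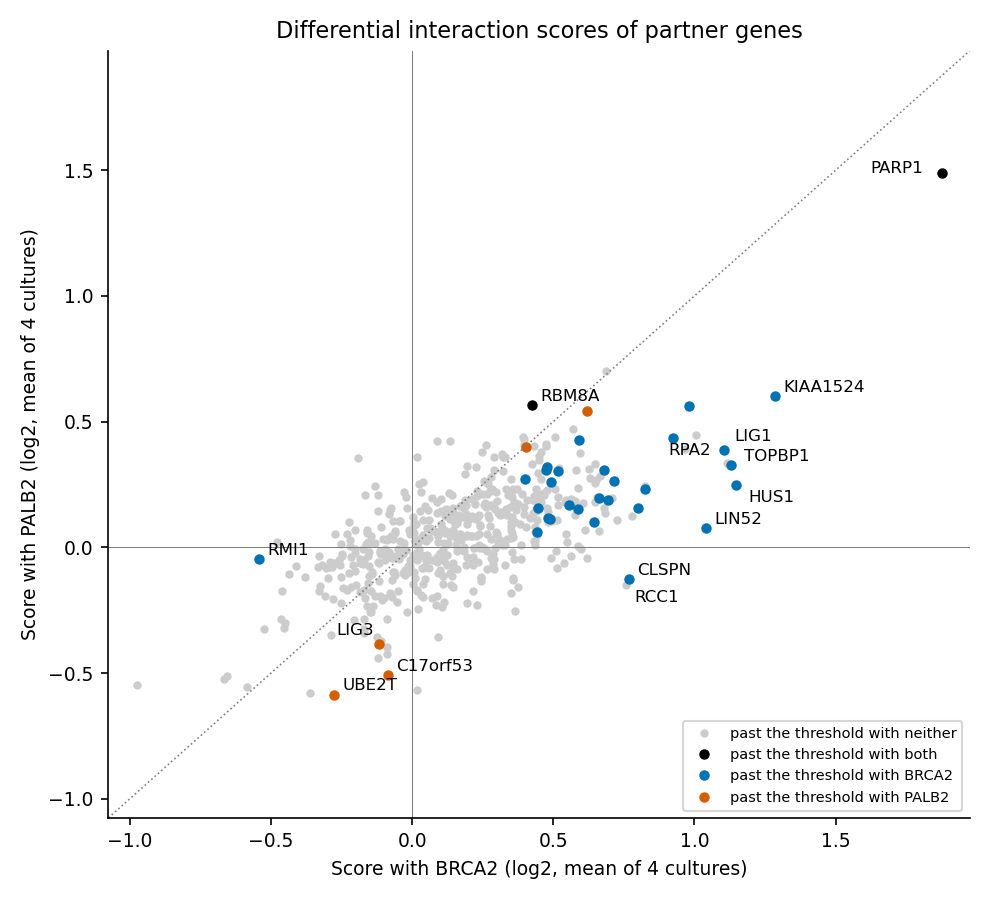
Differential interaction score (niraparib minus reference arm, log2, mean of 4 cultures) of each of 541 partner genes with PALB2 (vertical) against BRCA2 (horizontal), coloured by which member passed the threshold; the dotted line marks equal scores. PARP1 lies farthest from 0 with both genes, and KIAA1524, HUS1, TOPBP1 and LIG1 lie far above 0 with BRCA2 and nearer 0 with PALB2.

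Whether BRCA2 and PALB2 differ in their partners was tested directly, as the BRCA2 score minus the PALB2 score over 541 partners. In vehicle 58 partners (10.7%) were lower with BRCA2 and 2 (0.37%) higher, and for the differential score 17 (3.14%) were higher with BRCA2 and 0 lower (limma, with 99 at an unadjusted p under 0.05). The median partner leaned the same way, at -0.08 for the reference and 0.11 for the differential difference. Without the replicate block the 17 became 2, HUS1 and LIN52. With a straight line in place of the curve, the differential score gave 4 partners higher and 23 lower with BRCA2. Against the plain sum, the reference score gave 8 higher and 5 lower, and the differential score 34 higher and 0 lower. The direction of these counts therefore depended on the null. The reference differences were led by LIG1 (-0.71 ± 0.34), LIN52, a subunit of the DREAM and MuvB cell cycle complexes (-0.71 ± 0.26), PARP1 (-0.65 ± 0.21), HUS1 (-0.60 ± 0.31), the centromere chaperone HJURP (-0.58 ± 0.11) and the RNase H2 subunit RNASEH2C (-0.56 ± 0.17). Those that were higher with BRCA2 were DCTN5 (0.79 ± 0.13) and the recombination gene RAD51C (0.27 ± 0.14), the second of which did not pass without 2022 replicate 1 (limma adjusted p = 0.14). In the niraparib arm 2 were higher, DCTN5 (1.24) and the fork protection factor CLSPN (0.84), and 0 lower. A straight line gave 5 higher and 116 lower there, and the plain sum 77 higher and 0 lower.
Differential differences were led by LIN52 (0.96 ± 0.23), RCC1 (0.91 ± 0.46), HUS1 (0.90 ± 0.39), CLSPN (0.89 ± 0.37), TOPBP1 (0.80 ± 0.42) and the single-strand binding protein RPA2 (0.78 ± 0.48). Without 2023 replicate 2 the differential count fell to 0, and without 2022 replicate 1 and 2023 replicate 1 the reference count was 24 and 30, against 60.

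With the near-matched - sgRNAs, most of these differences were no longer called. BRCA2 minus PALB2 then gave 2 calls in the reference arm, 1 in the niraparib arm and 0 in the differential score (limma, with 38, 47 and 40 partners at an unadjusted p under 0.05). With the + sgRNAs, whose single phenotypes lie farthest apart, it gave 139, 14 and 49. The 2 reference calls left (0.185% of partners in each direction) were DCTN5 (0.77, limma adjusted p = 0.00678) and LIN52 (-0.66, adjusted p = 0.0396). The difference for PARP1 was -0.05 with the - sgRNAs, that for HUS1 -0.31 and that for LIG1 -0.32, and that for POLQ turned to 0.24.
POLQ shows the order by sgRNA. Its reference score was -1.55 ± 0.37 and -0.66 ± 0.20 with the + and - sgRNAs of BRCA2, and -0.91 ± 0.26 and -0.19 ± 0.05 with the - and + sgRNAs of PALB2. HUS1, by contrast, scored -0.78 ± 0.26 and -0.79 ± 0.21 with the - and + sgRNAs of PALB2, and -1.68 and -1.09 with the + and - sgRNAs of BRCA2. The HJURP score came from the BRCA2 + sgRNA (-0.89 ± 0.29), with 0.02 ± 0.13 for the - sgRNA. LIN52 scored below 0 with both BRCA2 sgRNAs (-0.61 and -0.39) and above 0 with both PALB2 sgRNAs (0.27 and 0.14). The BRCA2 scores of LIN52 and HJURP turned to 0.59 and 0.84 against the plain sum. Differences in knockdown strength between the sgRNAs were not measured here, and their part in these counts was not tested.

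**Figure D5:**
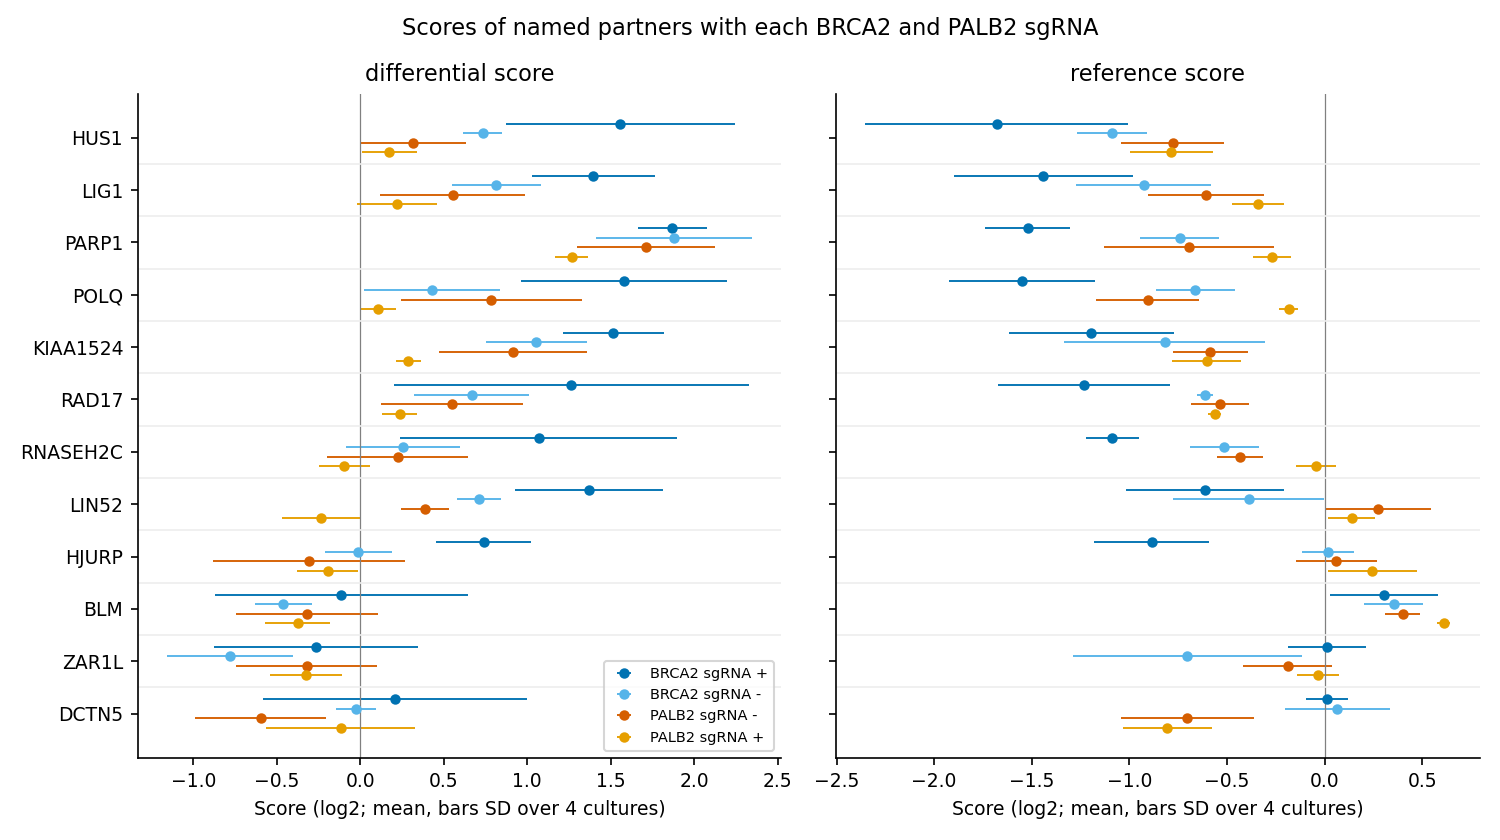
Differential (left) and reference (right) scores of 12 named partners with each BRCA2 and PALB2 sgRNA (points, mean; bars, SD over 4 cultures). The BRCA2 + sgRNA gives the most negative reference score for HUS1, LIG1, PARP1, POLQ, KIAA1524 and RAD17, and DCTN5 lies below 0 in the reference arm with the 2 PALB2 sgRNAs alone.

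DCTN5 and ZAR1L are the divergent neighbours of the members, and each gave a low score with its own neighbour. DCTN5, a dynactin subunit, scored -0.99, -0.48, -0.55 and -0.999 with PALB2 in the reference arm (limma adjusted p = 0.0247) and -1.22, -1.11, -1.21 and -0.91 in the niraparib arm (adjusted p = 0.00154), and 0.04 ± 0.17 with BRCA2 in the reference arm. Of the other dynactin genes in the list of 3, DCTN1 and DCTN3 passed below 0 with BRCA2 in vehicle (-0.35 and -0.45) and neither passed with PALB2. ZAR1L scored -1.37, -1.24, -0.47 and -0.40 with BRCA2 in the niraparib arm (mean -0.87, adjusted p = 0.0407), and -0.44 ± 0.15 with PALB2 (adjusted p = 0.0179). Neither ZAR1L call passed without 2022 replicate 1 (limma adjusted p = 0.115 with BRCA2 and 0.0582 with PALB2). These niraparib scores turned above 0 against the plain sum, at 0.25 for DCTN5 with PALB2, 0.06 for ZAR1L with BRCA2 and 0.22 for ZAR1L with PALB2, while the reference score of DCTN5 with PALB2 was -0.50.
Alone, DCTN5 had a growth of -0.69 and a response of -1.13, and ZAR1L of -0.23 and -0.92 (edgeR, all past the threshold), though ZAR1L growth was 0.23 with TMM scaling and 0.163 with DESeq2's own size factors. In response, BRCA2 minus ZAR1L was -1.30 ± 0.40 and PALB2 minus DCTN5 was 0.11 ± 0.06, each with 1 sign in 4 of 4 cultures (SD, n = 4, exact permutation p = 0.13). The reference score of ZAR1L with the BRCA2 - sgRNA was -0.70 ± 0.59 and with the + sgRNA 0.01 ± 0.20. Whether an sgRNA at one start lowers the transcript of the neighbour was not tested.

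In vehicle, BRCA2 and PALB2 each had the other as the gene with the most similar profile of scores across partners. Likeness was the Pearson correlation over 541 partners of one gene's scores in one screen with the other gene's scores in the other screen, so that no library is shared, averaged over both directions. The points still share sgRNAs and the partners' single phenotypes. In the reference arm BRCA2 and PALB2 reached r = 0.494, rank 1 of 542 genes for both, where BRCA2 with itself reached 0.778, PALB2 with itself 0.553, and the median gene 0.035 and 0.080. By Spearman's rho it was 0.322, and across the replicates within a screen r was 0.310 in 2022 and 0.453 in 2023. After PALB2, BRCA2 was most like ZAR1L (0.394), DCTN5 (0.366), RAD54L (0.356), NUDC (0.327) and UBE2T (0.321). After BRCA2, PALB2 was most like RAD51D (0.489), DCTN5 (0.460), XRCC2 (0.441), NUDC (0.426) and RAD51C (0.419).
DCTN1 and DCTN3, which share a complex with DCTN5, ranked 303rd and 86th for PALB2. BRCA1 ranked 73rd for BRCA2 (0.156) and 24th for PALB2 (0.291). The BRCA2 - and PALB2 - sgRNAs reached 0.459, about as much as the 2 BRCA2 sgRNAs between themselves (0.469), and the BRCA2 + and PALB2 + sgRNAs reached 0.234. In the differential score the genes reached 0.513, rank 1 for BRCA2 and 2 for PALB2 after XRCC1 (0.531), and in the niraparib arm 0.532, rank 1 for BRCA2 and 26 for PALB2. Without 2022 replicate 1 these values were 0.523 in the reference arm, 0.488 in the niraparib arm and 0.504 for the differential score.

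At T0 the pair was present as its 2 sgRNAs would give. Its log2 count less the effects of the first and second sgRNA was -0.07, -0.04, 0.06 and -0.05 in the 4 cultures, inside the central 95% range of all pairs in each culture, for example -0.26 to 0.26 in 2022 replicate 1. T0 levels also hold the abundance in the cloned library, which is not analysed here.

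The authors' deposited table of phenotypes, in their own log2-based units, gave the same order. The mean of its niraparib-over-reference phenotype (rho) over constructs with a non-targeting partner was -0.79, -1.09, -0.98 and -0.83 for BRCA2, against -0.43, -0.54, -0.52 and -0.45 for PALB2. Its reference growth phenotype (gamma) in the authors' deposited table was -0.31, -0.14, -0.14 and -0.13 for BRCA2, against -0.14, -0.07, -0.06 and -0.06 for PALB2. The first growth value of each gene is again that of 2022 replicate 1.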

How the data were processed

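Dual-sgRNA constructs were sequenced in 12 libraries. The deposited values are raw read counts per construct, which the authors obtained from the sequenced constructs; the submitters' processing notes name Bowtie2 2.3.4.1 without its role. The genome build is not given in the sources used here. The authors' deposited phenotype tables hold log2-based values and were used for the closing values alone. Depth was 182.6 to 460.7 megareads per library; reads carry no molecular identifiers, so counting error is a lower limit. The labels name 2 biological replicates per screen, and p-values measure the spread between these cultures.

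Single phenotypes came from summed counts of constructs with non-targeting partners, in edgeR 4.0.16 (R 4.3.3) with quasi-likelihood tests, the culture as a block and non-targeting constructs as library size. Interaction scores used a pseudocount of 1, a mean T0 count of at least 30, a degree 2 curve per sgRNA through at least 100 partners, and limma 3.58.1 over 4 cultures, with Benjamini-Hochberg adjustment over 147040 pairs (541 partners for BRCA2 minus PALB2) and a threshold of 0.05. Python 3.11.15 with numpy 2.4.6, pandas 2.3.3 and scipy 1.17.1 was used. Each script was tested on simulated data.

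The culture block rests on the labels, by which a culture gave its T0 sample before it was split into both arms. Deviations of same-numbered libraries correlated at -0.0198 to 0.491, not all above 0.1. Alternatives were TMM, DESeq2 1.42.0, no block, other count minimums and pseudocounts, other null models, single sgRNAs, positions, screens and left-out cultures. Some alternatives were added after seeing the data: each screen with its own mean, the single left-out reference library, and the authors' phenotypes. Members, lists and tests were chosen with earlier results of these data known. Named partners are the top scores in each direction past the threshold with 1 sign in 4 cultures, partners shared by both genes, the most alike profiles, promoter neighbours and list members. One gene among the listed partners is not reported here, though the counts of its list include it.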

Additional observations from a re-analysis of the deposited data

Results flagged for a closer look

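Of 129 groups of 4 cultures tested for a lone outlying culture, 18 had one, where chance flags about 1 in 20. In 15 of these the outlying culture was 2022 replicate 1, whose reference library stood apart. In growth its value was -2.095 for BRCA2 (the others -1.083 to -1.053), -0.7354 for PALB2 (-0.3696 to -0.3549) and -2.336 for the pair (-1.321 to -1.181). By sgRNA, growth there was -3.127 for the BRCA2 + sgRNA, -1.48 for the BRCA2 - sgRNA and -1.684 for the PALB2 - sgRNA, each the lowest of 4. The neighbours were lowest there too: DCTN5 at -1.039, its + sgRNA at -1.443, ZAR1L at -0.4731 and one of its sgRNAs at -0.6108. The response of the BRCA2 + sgRNA was -2.638 there, against -4.509 to -4.218 in the others.

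In the same culture the reference score was nearest 0 for BRCA2 with POLQ (-0.7136, the others -1.255 to -1.219), BRCA2 with LIN52 (-0.2079), PALB2 with KIAA1524 (-0.3506) and PALB2 with BLM (0.4133). In other cultures, the differential score of BRCA2 with LIG1 was 1.381 in 2022 replicate 2, the reference score of BRCA2 with RAD17 was -1.231 in 2023 replicate 2, and the niraparib score of PALB2 with RAD51B was -1.331 in 2023 replicate 1. No value was removed.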

How the results depend on the processing

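The single phenotypes of BRCA2 and PALB2 kept their direction under every alternative run, and the calls held except PALB2 growth, which was -0.0024 with TMM and -0.066 with DESeq2's own size factors. Leaving out 1 culture gave -1.58 to -1.06 for BRCA2 growth and -0.55 to -0.37 for PALB2 growth. Without the replicate block, growth was -1.28 for BRCA2 and -0.45 for PALB2 and response -2.26 and -1.02; differential calls numbered 31 above and 5 below 0 for BRCA2, 5 and 3 for PALB2, and 2 for BRCA2 minus PALB2, against 17. Named differential calls lost without the block included these 11 (limma adjusted p = 0.0891 to 0.302): CLSPN, LIG1 and RBM8A with BRCA2, C17orf53 and RBM8A with PALB2, and CLSPN, HJURP, KIAA1524, LIG1, RPA2 and TOPBP1 for the difference. The difference for RCC1 was lost too, since the 2 left were HUS1 and LIN52. Of the named calls, at least 44, 59, 52 and 62 were lost without 2022 replicate 1, 2022 replicate 2, 2023 replicate 1 and 2023 replicate 2 in turn. The cause of the changes below was not tested.

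Score of the pair: the reference score was 0.443 against the plain sum and -0.0596 with the - sgRNAs. The niraparib score was 1.621 against the plain sum, 0.166 in 2023 alone and -0.339 to 0.191 with a culture left out. The differential score was 1.178, 0.0283 and -0.429 to 0.0771 in the same settings.

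Partners called, in the order reference, niraparib and differential, were 61, 61 and 30 for BRCA2, 21, 100 and 7 for PALB2, and 60, 2 and 17 for BRCA2 minus PALB2. Leaving out 1 culture gave 6 to 16, 17 to 32 and 1 to 4 for BRCA2, 1 to 5, 20 to 30 and 0 to 1 for PALB2, and 24 to 52, 1 to 4 and 0 to 18 for the difference. The 2022 screen alone gave 0, 9 and 0 for each gene and 0 niraparib and 0 differential calls for the difference; the 2023 screen alone gave 0, 4 and 0 for BRCA2, 0, 3 and 0 for PALB2, and 37, 4 and 3. Against the plain sum the counts were 274, 386 and 298, then 287, 423 and 308, then 13, 77 and 34. With 10 added to each count they were 107, 129 and 102 for BRCA2, 43 reference and 32 differential for PALB2, and 6 niraparib and 54 differential for the difference. With the + sgRNAs, BRCA2 had 97 reference calls, PALB2 2 differential calls, and the difference 139, 14 and 49. With the - sgRNAs, BRCA2 had 24 reference and 9 differential calls, and the difference 2, 1 and 0. With the member in the first position the counts were 8, 13 and 7, then 5, 16 and 1, then 11, 1 and 0, and in the second position 16, 19 and 6, then 3, 15 and 2, then 3, 0 and 1. A T0 minimum of 100 gave 19 differential calls for BRCA2, 64 niraparib and 4 differential for PALB2, and 32, 0 and 6 for the difference. A straight line gave 99 niraparib and 11 differential calls for BRCA2 and 121 niraparib and 27 differential for the difference. Each screen with its own mean gave 13, 1 and 27 differential calls for BRCA2, PALB2 and the difference.

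Likeness in the reference arm was 0.322 by Spearman's rho and 0.310 within 2022. In the niraparib arm it was 0.411 within 2022, 0.383 within 2023 and 0.488 without 2022 replicate 1, and for the differential score 0.338 and 0.421 within the screens.

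Against the plain sum these scores changed sign. Niraparib scores with BRCA2 became 0.961 for C19orf40, 0.805 for C4orf27, 1.577 for RAD51C, 1.218 for RAD54L, 0.156 for RMI1, 0.400 for SWI5, 0.695 for UBE2T and 0.0633 for ZAR1L. Those with PALB2 became 0.802 for C19orf40, 0.345 for C4orf27, 0.251 for DCTN5, 0.483 for HUS1, 0.471 for LIG3, 0.936 for RAD51C, 0.790 for RAD54L, 0.219 for UBE2T and 0.221 for ZAR1L. Reference scores became 0.838 for HJURP, 0.587 for LIN52 and 0.0296 for RAD9A with BRCA2 and 0.0749 for RAD9A with PALB2, and differential scores with PALB2 became 0.371 for LIG3 and 0.0667 for UBE2T. With the - sgRNAs the reference score of BRCA2 with HJURP was 0.0173 and the POLQ difference 0.244. With the + sgRNAs the niraparib score was -0.0973 for PALB2 with LIN52 and 0.0146 for BRCA2 with SWI5. A straight line gave -0.171 for the HJURP differential difference, -0.0807 for BRCA2 with LIN52 under niraparib and -0.118 for the RBM8A differential score with BRCA2. ZAR1L growth became 0.227 with TMM and 0.163 with DESeq2's own size factors.
Depth limits the niraparib values of the BRCA2 + sgRNA, whose pair constructs with PALB2 held 0 to 28 reads.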

Other observations

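Cells carrying both PALB2 sgRNAs lost more than cells with the PALB2 - sgRNA and a non-targeting partner, by a log2 of -0.32 ± 0.09 in growth and -0.85 ± 0.56 over the whole course (SD, n = 4, lower in 4 of 4 cultures, exact permutation p = 0.13 for each, the smallest that 4 cultures allow). In response the difference was -0.54 ± 0.62, lower in 3 of 4 cultures (exact permutation p = 0.25). The niraparib values rest on 3 to 106 reads in each construct. The PALB2 - sgRNA in both positions gave -1.37 ± 0.57 in growth and -3.42 ± 0.76 over the whole course. With both PALB2 sgRNAs these values were -1.43 ± 0.32 and -3.64 ± 0.71, so the further loss was not particular to joining different sgRNAs.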
